A study of Rattus norvegicus with 10 samples.

Results

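The small leucine-rich proteoglycans examined here were decorin (Dcn), lumican (Lum), asporin (Aspn), biglycan (Bgn), fibromodulin (Fmod) and osteoglycin (Ogn). They were read from every probe set whose only gene symbol was 1 of these 6, which gave 10 probe sets: 4 for Ogn, 2 for Aspn and 1 for each of the others. The 6 genes were among 13286 that tested probe sets of the series named. RNA came from HSC-2, a rat (Wistar) hepatic stellate cell line, hybridised to 10 Affymetrix arrays. The 5 lines were 3 transfected clones that overexpress rno-miR-146a, called S1, S4 and S5, then a line transfected with a scrambled sequence, then the untransfected line, and the series text names the last pair as the controls. Every line gave an array from passage 43 and an array from passage 42, and all grew in high-glucose DMEM with serum. Each clone is 1 line grown from transfected cells, so a difference that holds for a single line cannot be told apart from what that line inherited from its founder cell. No label says that a line's passages were grown as separate cultures. A p-value between single lines therefore reflects how far passages of a line differ, and that may be technical.

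Small leucine-rich proteoglycans are secreted matrix proteins built around a horseshoe of leucine-rich repeats. Decorin, biglycan and asporin form one class of the family, lumican and fibromodulin another, and osteoglycin stands in one more. They bind collagen fibrils and limit or direct their growth, and decorin, biglycan, fibromodulin and asporin also bind TGF-beta, the main fibrogenic growth factor of the liver. In fibrotic liver, activated stellate cells and fibroblasts are their main source. The microRNA that sets the clones apart, miR-146a, is known to dampen signals of Toll-like receptors and of the interleukin-1 receptor, and biglycan and decorin can themselves signal through Toll-like receptors. Its mature sequence is shown, from RefSeq (build GRCr8, chr10:28350053-28350074, minus strand), with the seed, bases 2 to 8, in capitals.
rno-miR-146a-5p: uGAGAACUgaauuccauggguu

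The values are the deposited intensities, in linear units, and the lowest value in the table is a floor of exactly 20, where 14.6% of all values lie. The array medians were 97.74 to 103.74. All 10 proteoglycan probe sets were above the floor on at least 4 arrays and were tested. Only Aspn touched the floor: both of its probe sets were at 20 on all 6 clone arrays and above it on all 4 control arrays. Intensities of different probe sets are not comparable as amounts, so each gene is compared only with itself. Precision is limited by how few arrays there are. Of 12 stellate cell and myofibroblast markers, Vim was at 22676 to 24794 in the clones, against 21124 to 23550 in the control lines, and Col1a1, Col1a2 and Col3a1 were all at 17936 or more, but Lrat, the enzyme that stores retinoid, was at the floor on all 10 arrays and Gfap stayed between 28.1 and 38.1. Among markers of other cells, Ptprc was at 20 to 21.0, Pecam1 at 25.1 to 29.6 and Epcam at 20 throughout, while Tek was at 99.8 to 165 in the clones, against 102 to 198 in the control lines, Clec4f at 98.7 to 111 and 99.7 to 110, and Cd14 at 549 to 716 and 452 to 634. The summed hepatocyte markers were at 266 to 296 in the clones, against 248 to 303 in the control lines, the macrophage markers, mostly Cd14, at 735 to 888 and 617 to 822, the endothelial markers at 208 to 259 and 199 to 305, and the biliary markers at 71.6 to 86.4 and 64.7 to 72.3. In RNA of whole cultures, fewer cells that make a transcript and less of it per cell cannot be told apart.

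**Figure D1:**
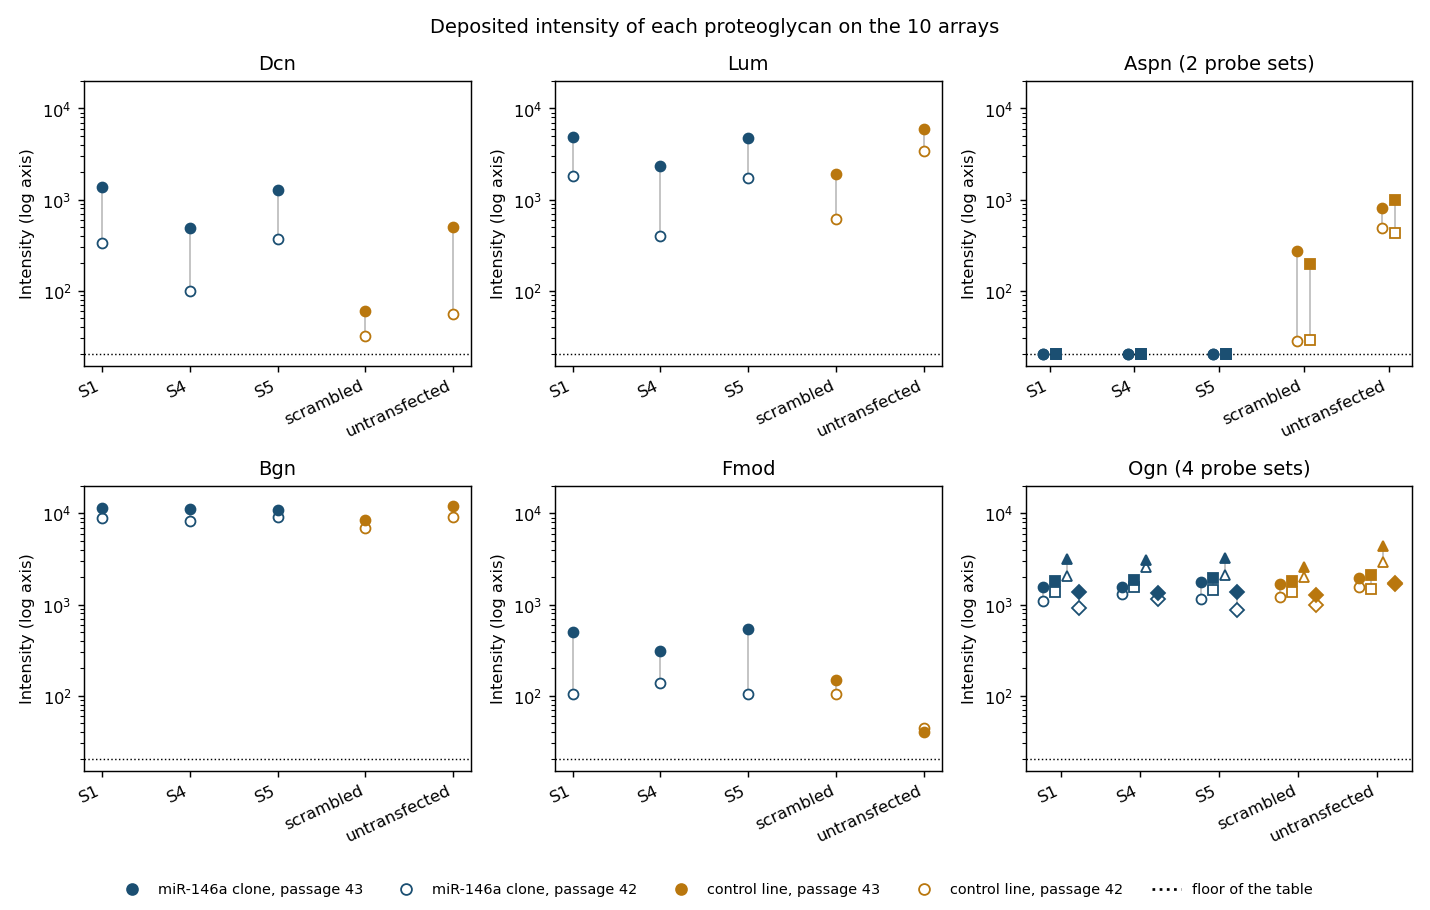
Intensity (log axis) of each proteoglycan in clones S1, S4 and S5 and in the scrambled and untransfected lines, filled at passage 43 and open at passage 42, with 1 marker shape per probe set and a dotted line at the floor of 20. Aspn sits on the floor in all 3 clones, and Dcn, Lum and Bgn are higher at passage 43 in all 5 lines.

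Decorin is a collagen-binding proteoglycan with 1 glycosaminoglycan chain that sequesters TGF-beta and inhibits receptor tyrosine kinases. At passage 43 its intensity was 1385 in S1, 483 in S4 and 1289 in S5, against 60.5 in the scrambled and 503 in the untransfected line. At passage 42 it was 337 in S1, 99.7 in S4 and 372 in S5, against 31.9 in the scrambled and 56.0 in the untransfected line. The clones were thus above both control lines at passage 42, as were 13.3% of all tested probe sets, while at passage 43 clone S4 lay just under the untransfected line. Over passages, Dcn averaged 8.88 ± 0.95 on the log2 scale in the clones (SD, n = 3) and 6.42 ± 1.37 in the control lines (SD, n = 2). That difference of 2.45 (SE 0.78, 95% interval 0.44 to 4.47) did not pass the test over 5 line means (limma adjusted p = 0.248). The order of the line means was S5, S1, S4, untransfected, scrambled.

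Asporin, which carries no glycosaminoglycan chain and competes with decorin for the same site on collagen, had no level above the floor in any clone. Probe set 1380726_at was at 20 in S1, S4 and S5 at both passages, against 276 in the scrambled and 801 in the untransfected line at passage 43, and 27.9 and 483 in the same lines at passage 42. Probe set 1381504_at was also at 20 on all 6 clone arrays, against 198 in the scrambled and 998 in the untransfected line at passage 43, and 28.5 and 425 at passage 42. All 6 clone arrays lay below all 4 control arrays in these 2 of the 10 proteoglycan probe sets, and in 3.44% of all tested probe sets. Because the clones are at the floor, the fold is a bound: against the mean of both control lines Aspn was at least 11.7-fold lower by the first probe set and at least 11.1-fold lower by the second. Against the scrambled line alone the bounds were at least 4.38-fold and 3.75-fold lower, and against the untransfected line at least 31.1-fold and 32.6-fold lower. The scrambled array at passage 42 was itself close to the floor.

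Over line means, the fitted Aspn differences of -3.55 (SE 0.82, limma adjusted p = 0.152) and -3.47 (SE 0.90, limma adjusted p = 0.185) did not pass the test. The SE there comes from the control lines, since the clones have no spread at the floor. Fits of line means with 1 control line have no spread on either side for Aspn, so their p-values measure no variation between lines and are not given. With 10 arrays and line as a random block both probe sets passed (limma adjusted p = 0.0257 and 0.0305, and 0.0369 and 0.0413 with the replicate block), but the correlation within lines was 0.0485, so that fit takes passages of a line as nearly independent. On all 10 arrays, each clone against the scrambled line alone had limma adjusted p from 0.273 to 0.291 over both probe sets. Against the untransfected line alone it was 0.0131 to 0.0232.

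Fibromodulin, a keratan sulfate proteoglycan that binds collagen and promotes fibril maturation, was at 500 in S1, 309 in S4 and 536 in S5 at passage 43, against 148 in the scrambled and 40.02 in the untransfected line. At passage 42 it was at 104 in S1, 137 in S4 and 104 in S5, against 105 in the scrambled and 43.9 in the untransfected line. All 3 clones were above both control lines at passage 43, as were 17% of all tested probe sets, but at passage 42 the scrambled line lay among the clones. The clones averaged 7.80 ± 0.10 on the log2 scale (SD, n = 3) and the control lines 6.17 ± 1.11 (SD, n = 2). The difference of 1.62 (SE 0.46, 95% interval 0.44 to 2.80) did not pass the test (limma adjusted p = 0.209). On all 10 arrays, Fmod in S1, S4 and S5 differed from the scrambled line by 0.87, 0.73 and 0.92 (limma adjusted p = 0.741, 0.787 and 0.72). The untransfected intensities were near the floor of 20, so log2 differences from that line may be compressed.

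Lumican, the fibril-spacing partner of fibromodulin in the same class, did not separate the clones from the control lines. It was at 4888 in S1, 2332 in S4 and 4725 in S5 at passage 43, against 1934 in the scrambled and 5943 in the untransfected line. At passage 42 it was at 1804 in S1, 401 in S4 and 1733 in S5, against 607 in the scrambled and 3375 in the untransfected line. The control lines enclosed S1 and S5 at both passages. The difference between clones and control lines was -0.13 (SE 0.80, 95% interval -2.17 to 1.92, limma adjusted p = 0.961).

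Biglycan, the 2-chain relative of decorin and a ligand of Toll-like receptors, was within a narrow range in every line. It was at 11458 in S1, 11110 in S4 and 10970 in S5 at passage 43, against 8447 in the scrambled and 12060 in the untransfected line. At passage 42 it was at 8894 in S1, 8344 in S4 and 9105 in S5, against 6909 in the scrambled and 9215 in the untransfected line. The untransfected line was the highest and the scrambled line the lowest at each passage. The clones differed from the control lines by 0.14 (SE 0.15, 95% interval -0.24 to 0.52, limma adjusted p = 0.7).

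Osteoglycin, also called mimecan, regulates collagen fibril diameter and has bone-forming activity. Probe set 1385248_a_at was at 3124 in S1, 3053 in S4 and 3231 in S5 at passage 43, against 2553 in the scrambled and 4400 in the untransfected line. At passage 42 it was at 2057 in S1, 2585 in S4 and 2128 in S5, against 2023 in the scrambled and 2962 in the untransfected line. The other 3 Ogn probe sets spanned 874 to 1937 in the clones, against 983 to 2118 in the control lines. The clones overlapped the control lines in all 4. Their differences from the control lines were -0.18, -0.02, -0.11 and -0.26, with limma adjusted p from 0.511 to 0.953, and the widest of the 95% intervals, that of 1385248_a_at, ran from -0.64 to 0.42. The 4 probe sets correlated with each other at r = 0.7275 to 0.9156 over the 10 arrays, and the 2 Aspn probe sets at 0.9959. The arrays share lines and passages, so these correlations are descriptions.

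In all, 0 of the 10 probe sets passed in clones against control lines at adjusted p under 0.05, while 0.898% of all 27520 tested probe sets did. At unadjusted p under 0.05, the 2 Aspn probe sets, Dcn and Fmod did pass, as did 4251 of all 27520 tested probe sets. Aspn was in the tested set only through its control arrays, so its p-values are a description and support nothing.

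**Figure D2:**
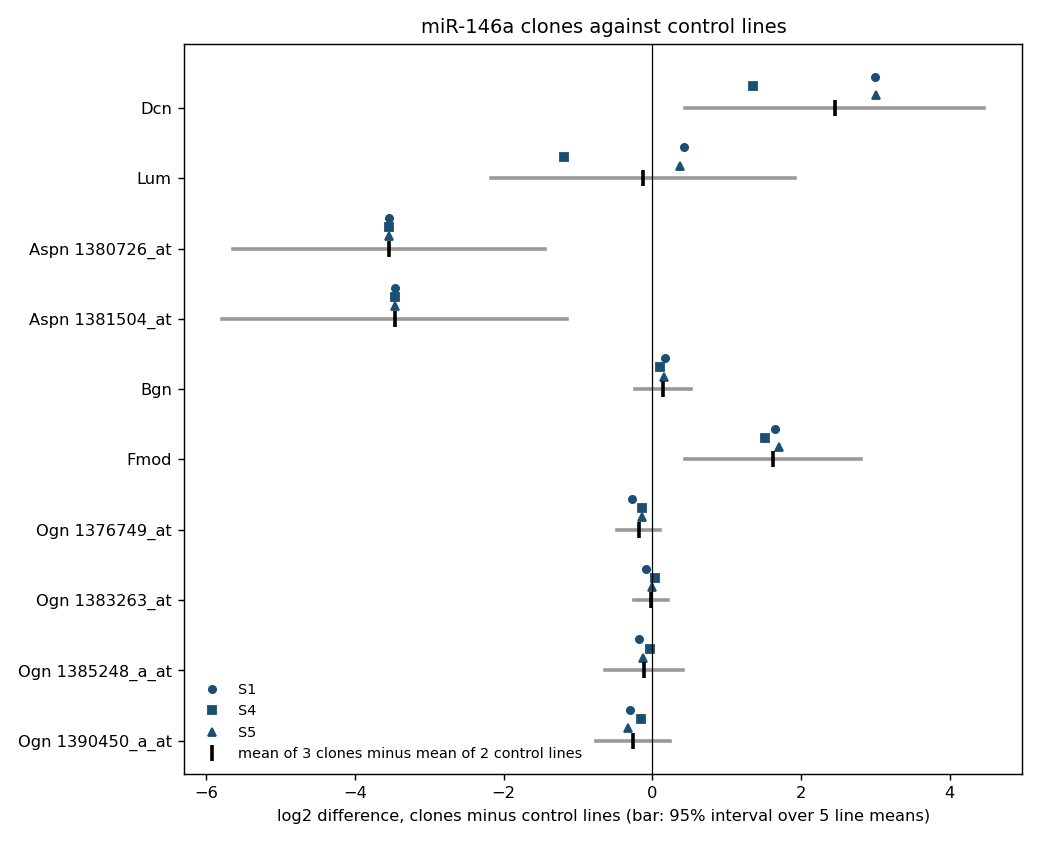
log2 difference of each probe set, clones minus control lines, with the mean of the 3 clones minus the mean of the 2 control lines (black tick), its 95% interval over 5 line means (grey bar) and each clone minus the control mean (markers). The intervals of Dcn, Aspn and Fmod leave out 0 before adjustment, those of Lum, Bgn and Ogn hold it, and the Aspn values are limits set by the floor.

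Each clone was then set against the mean of both control lines on all 10 arrays. These 3 tests share their control arrays, so their agreement is not independent. Aspn was in the tested set only through its control arrays, being at the floor in every clone, so its calls are given as a description and support nothing. Both Aspn probe sets passed as lower in each clone, 2 of 10 in S1 (adjusted p = 0.0421 and 0.0313), 2 of 10 in S4 (0.0477 and 0.0359) and 2 of 10 in S5 (0.0499 and 0.0372). Among all tested probe sets, 1.74% fell in S1, 1.26% in S4 and 1.36% in S5. These Aspn calls sit near the threshold and rest on single arrays: with the untransfected passage 42 array left out, the untransfected passage 43 array left out, or either array of the clone itself left out, 0 of 10 probe sets passed in any clone. They were also lost in all 3 clones against the scrambled line alone (adjusted p = 0.273 to 0.291), with a floor of 40 (0.161 to 0.201) and with no filter (0.124 to 0.158). Without the scrambled passage 43 array the fitted Aspn difference was -2.72 and -2.77, and without the scrambled passage 42 array it was -4.37 and -4.17, and both probe sets passed in all 3 clones.

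Decorin was higher in each clone, by 2.99 in S1 (SE 1.06, limma adjusted p = 0.204), 1.35 in S4 (SE 1.06, adjusted p = 0.648) and 3.01 in S5 (SE 1.06, adjusted p = 0.218), none of which passed. The passage numbers pair the lines, and with passage as a replicate block the SE fell to 0.37. Dcn then passed in S1 (adjusted p = 0.00463) and S5 (adjusted p = 0.00587) but not in S4 (adjusted p = 0.0916), and it was the only one of the 10 to pass upward. With the block, 3.86% of all tested probe sets rose in S1, 3.26% in S4 and 3.11% in S5. Set against each control line alone with the block, Dcn passed in S1 and S5 against both, at 3.96 and 3.98 against the scrambled line (adjusted p = 0.00235 and 0.00262) and 2.02 and 2.05 against the untransfected line (adjusted p = 0.0314 and 0.0331). In S4 it passed against the scrambled line, at 2.32 (adjusted p = 0.0219), and not against the untransfected line, at 0.39 (adjusted p = 0.661).

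Fibromodulin was higher by 1.66 in S1, 1.51 in S4 and 1.71 in S5, with limma adjusted p of 0.354, 0.433 and 0.347, and it did not pass against both control lines with the replicate block either (adjusted p = 0.104, 0.15 and 0.106). Against the untransfected line alone the block brought Fmod past the threshold in S1, at 2.44 (adjusted p = 0.0436, and 0.184 without it), and in S5, at 2.49 (0.0443, and 0.181 without it), but not in S4, at 2.29 (0.0603). Against the scrambled line alone it did not pass with the block (adjusted p = 0.468, 0.552 and 0.436). Lumican differed from the control mean by 0.43 in S1, -1.19 in S4 and 0.38 in S5, and none passed (limma adjusted p = 0.882, 0.594 and 0.894). With the replicate block, Lum in S4 was below the untransfected line, at -2.21 (adjusted p = 0.0112), whereas against the mean of both control lines its adjusted p was 0.063. In the other direction, Lum in S1 was above the scrambled line with the block, at 1.45 (adjusted p = 0.0429, and 0.554 without it). The block also brought past the threshold Bgn above the scrambled line in S1, at 0.40 (adjusted p = 0.0384, and 0.443 without it), and in S5, at 0.39 (0.0472, and 0.462 without it), and Ogn 1385248_a_at below the untransfected line in S1, at -0.51 (0.045, and 0.4 without it).

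Clone S4 was the lowest of the clones for Dcn and Lum at each passage. The range between clone means was 1.66 for Dcn and 1.62 for Lum, and at most 0.20 for the 8 other probe sets. For both Aspn probe sets the range was 0 because every clone was at the floor, so no test could separate the clones there. In the F test between clones 0 of the 10 probe sets passed, as against 0.0327% of all tested probe sets. At unadjusted p under 0.05, 0 of the 10 and 749 of all tested probe sets passed.

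The 2 control lines were not alike for these genes. In the scrambled line 9 of the 10 probe sets were lower than in the untransfected line and Fmod was higher. Over all tested probe sets the median difference was 0.00. In limma without the block 0 of the 10 passed, against 6.1% of all tested probe sets in either direction. With passage as a replicate block 7 of the 10 fell in the scrambled line, against 7.46% of all tested probe sets. These were Dcn at -1.93 (SE 0.43, adjusted p = 0.029), Lum at -2.05 (SE 0.34, adjusted p = 0.0103) and Bgn at -0.46 (SE 0.09, adjusted p = 0.0181). Both Aspn probe sets were among them, at -2.83 (SE 0.75, adjusted p = 0.0494) and -3.12 (SE 0.65, adjusted p = 0.0233). So were 2 of the 4 Ogn probe sets, 1385248_a_at at -0.67 (SE 0.12, adjusted p = 0.0149) and 1390450_a_at at -0.61 (SE 0.15, adjusted p = 0.0419). Fmod was 1.57 higher in the scrambled line (SE 0.58, adjusted p = 0.121 with the block). The control lines were each 1 line, so an effect of the scrambled sequence cannot be told apart from any other difference between these lines. Without the block, leaving out the scrambled passage 43 array made both Aspn probe sets pass, at -4.48 (adjusted p = 0.00243) and -4.52 (adjusted p = 0.00913), while leaving out the scrambled passage 42 array gave -1.18 (adjusted p = 0.0939) and -1.72 (adjusted p = 0.118). In such fits the scrambled line has 1 array and is assumed to vary like the other lines. Acta2, smooth muscle actin, a marker of activated stellate cells, was also lower in the scrambled line, at -2.89 (limma adjusted p = 0.000171), and its part in the difference was not tested.

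For no neighbouring pair of lines in the order of means did the difference pass without the block. With it, the untransfected line was above the scrambled line for Dcn and both Aspn probe sets. For Bgn the order was untransfected, S1, S5, S4, scrambled, and the smallest gap between neighbours in that order was 0.01. For Fmod it was S5, S1, S4, scrambled, untransfected, and for Lum it was untransfected, S1, S5, scrambled, S4.

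Passage 43 was set against passage 42 with line as a block. Each line gave 1 array per passage, so passage cannot be told apart from a harvest or array batch shared by passage. Over all tested probe sets the passage changes of the clones correlated with each other at 0.5414 to 0.6485, and those of the control lines at 0.1364. The 5 lines may therefore not be independent repeats. Decorin rose in all 5 lines, by 4.11-fold in S1, 4.84-fold in S4, 3.46-fold in S5, 1.90-fold in the scrambled and 8.97-fold in the untransfected line. Its mean log2 change of 2.04 (SE 0.27, 95% interval 1.40 to 2.68, n = 5 lines) passed the test (limma adjusted p = 0.0141). Lumican rose by 2.71-fold in S1, 5.81-fold in S4, 2.73-fold in S5, 3.19-fold in the scrambled and 1.76-fold in the untransfected line, a mean log2 change of 1.58 (SE 0.21, adjusted p = 0.0141). Biglycan rose by 1.20-fold to 1.33-fold, a mean log2 change of 0.35 (SE 0.06, adjusted p = 0.0209). For Ogn, 3 probe sets rose by 0.44, 0.40 and 0.47 on the log2 scale (adjusted p = 0.0206, 0.0184 and 0.0209) and the fourth, 1390450_a_at, was at 0.38 (adjusted p = 0.0699).

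Thus 6 of the 10 probe sets passed upward, of 4 genes, against 2.43% of all tested probe sets, whose median change was -0.0012. Of the 10, 7 were higher at passage 43 in all 5 lines (Dcn, Lum, Bgn and the 4 Ogn probe sets), against 9.57% of all tested probe sets. Fmod was higher in 4 of 5 lines, by 4.82-fold in S1, 2.26-fold in S4, 5.17-fold in S5 and 1.41-fold in the scrambled line, and at 0.911-fold in the untransfected line. Its mean change of 1.24 (SE 0.36) did not pass (limma adjusted p = 0.102). The Aspn changes of 0.81 (adjusted p = 0.388 and 0.316) came from the control lines alone, because the clones were at the floor at both passages. The passage calls depend on every clone: without S1, without S4 or without S5, 0 of the 10 passed (and 0 of all tested probe sets), while Dcn stayed between 1.98 and 2.10 and Lum between 1.34 and 1.62. Without the scrambled line 4 passed (Dcn, Bgn and 2 Ogn probe sets), and without the untransfected line 7 did. The stellate cell marker sum was 87001 to 107516 at passage 43 and 88506 to 102789 at passage 42, and those of hepatocyte, macrophage, endothelial and biliary markers overlapped between passages.

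**Figure D3:**
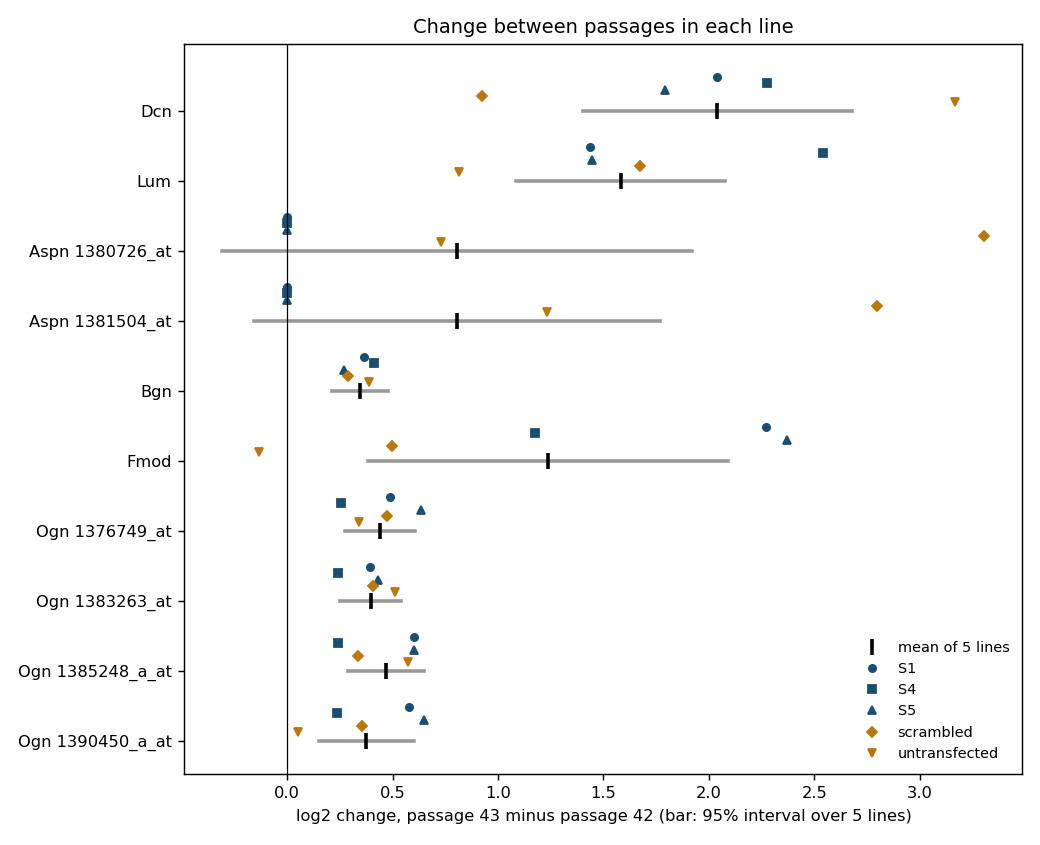
log2 change of each probe set, passage 43 minus passage 42, in each line (markers), with the mean of 5 lines (black tick) and its 95% interval (grey bar). Dcn, Lum, Bgn and Ogn are to the right of 0 in all 5 lines, Fmod in 4, and Aspn moves only in the control lines, with the 3 clones at 0.

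Whether the passage change differed between clones and control lines was tested after these values were seen. In the clones Fmod changed by 1.94 ± 0.66 (SD, n = 3), against 0.18 ± 0.44 (SD, n = 2) in the control lines, a difference of 1.76 (SE 0.39, 95% interval 0.81 to 2.71, limma adjusted p = 0.435). For Dcn the changes were 2.04 ± 0.24 and 2.05 ± 1.59, a difference of -0.01 (SE 0.60). In limma 0 of the 10 probe sets passed, as against 0.0182% of all tested probe sets (5 in all). At unadjusted p under 0.05 Fmod and both Aspn probe sets passed, as did 2298 of all tested probe sets. The Aspn change in the clones is held at 0 by the floor at both passages, so its p-values measure no difference in response.

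Genes next to the members were read from the same arrays. On chromosome 17 Aspn lies in a run of genes that, in the gene table of rat build GRCr8, holds Nol8, Cenpp, Ogn, Omd, Aspn and Ecm2 in that order, with other genes that no probe set named between Aspn and Ecm2. Aspn was the only one of them to be at the floor in the clones. Omd, osteomodulin, a further member of the family, was at 48.5 to 109 in the clones, against 46.2 to 82.9 in the control lines, a difference of 0.06 (adjusted p = 0.945). Ecm2, a matrix protein, differed by -0.23 (adjusted p = 0.772) and Ogn by -0.11 by its brightest probe set. At passage 43 Omd was higher in all 5 lines (0.43, adjusted p = 0.16), while Nol8 fell by 0.37 (adjusted p = 0.0497) and Cenpp was at -0.60 (adjusted p = 0.0553), both lower in all 5 lines. Dcn and Lum are next to each other on chromosome 7, and both rose at passage 43. Beside Bgn on chromosome X, Haus7 was lower in the scrambled line than in the untransfected at -0.93 (adjusted p = 0.00582), and Trex2 and Atp2b3 did not pass. Beside Fmod on chromosome 13, Chit1 differed between clones and control lines by 0.12 (adjusted p = 0.448).

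**Figure D4:**
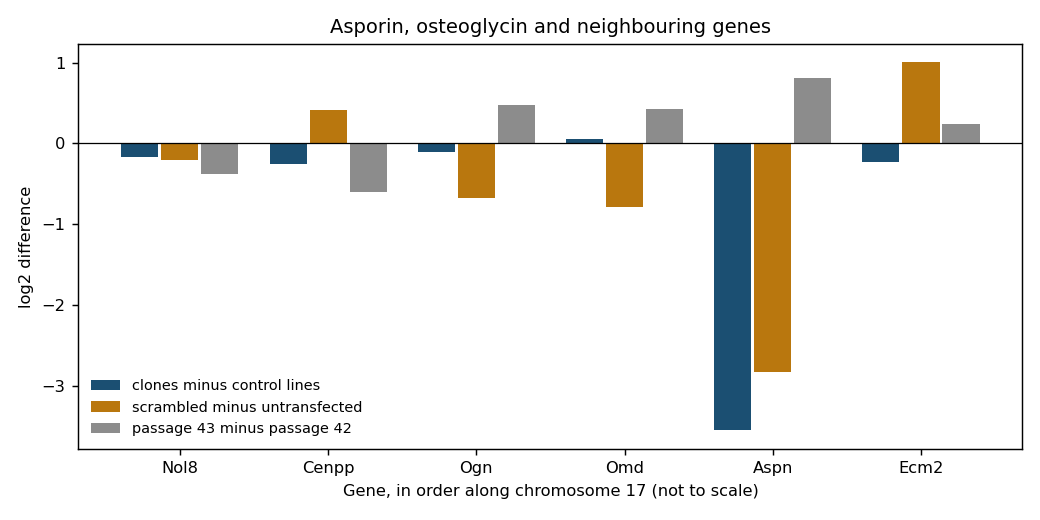
log2 differences for 6 genes in order along chromosome 17, for clones minus control lines, scrambled minus untransfected line and passage 43 minus passage 42. The Aspn bars for clones and for the scrambled line reach -3.55 and -2.83, and no bar of a neighbouring gene is below -0.79.

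The promoters of Aspn, Ogn and Lum are shown because Aspn and Ogn are close neighbours with unlike levels in the clones and Ogn and Lum rose together at passage 43. RefSeq promoter sequences (build GRCr8, 250 bases before to 50 after the gene start) were found for 4 of the 6 genes. Capitals mark matches on either strand to a TATA box (TATAAA), an AP-1 site (TGANTCA), a Smad motif (CAGAC), a GC box (GGGCGG) or an NF-kB site.
Aspn, chr17:15310420-15310719, minus strand: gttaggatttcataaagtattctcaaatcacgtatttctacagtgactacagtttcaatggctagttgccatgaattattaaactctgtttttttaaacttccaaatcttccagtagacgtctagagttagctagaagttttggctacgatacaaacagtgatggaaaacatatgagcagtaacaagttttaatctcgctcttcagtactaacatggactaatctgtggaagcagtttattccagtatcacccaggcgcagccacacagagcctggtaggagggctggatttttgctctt
Ogn, chr17:15258946-15259245, minus strand: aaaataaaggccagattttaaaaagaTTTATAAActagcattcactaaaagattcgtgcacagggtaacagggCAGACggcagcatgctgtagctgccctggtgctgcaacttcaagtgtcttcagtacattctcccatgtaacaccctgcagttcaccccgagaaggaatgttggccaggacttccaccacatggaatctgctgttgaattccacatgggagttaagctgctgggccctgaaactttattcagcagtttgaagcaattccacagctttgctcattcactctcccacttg
Lum, chr7:34245456-34245755, plus strand: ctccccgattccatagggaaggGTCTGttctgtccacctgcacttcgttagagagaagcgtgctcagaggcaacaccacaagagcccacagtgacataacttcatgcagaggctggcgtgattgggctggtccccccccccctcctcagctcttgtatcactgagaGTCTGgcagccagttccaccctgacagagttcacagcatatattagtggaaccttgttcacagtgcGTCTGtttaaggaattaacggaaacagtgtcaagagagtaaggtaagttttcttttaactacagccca
None of the 5 motifs was found in the Aspn window. The Ogn window held 2 overlapping TATA box matches, which begin 224 and 222 bases before the start, and 1 Smad motif. The Lum window held 3 Smad motifs. The Fmod window, not printed, held 2 Smad motifs and 1 GC box. Of 33469 promoters of the same length, 14.2% held the TATA box, 50.1% the Smad motif, 33.1% the GC box, 7.33% the AP-1 site and 7.51% the NF-kB site. A match or its absence is a description of these letters only.

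Related genes were then counted in lists, 1 probe set per gene. Of 11 other family members, 8 were on the array, and 0 passed limma in clones against control lines (median -0.13, all tested probe sets -0.01). At unadjusted p under 0.05, 2 of the 8 passed, beside 4251 of all 27520 tested probe sets. Tsku, tsukushi, was at 9.54 ± 0.13 in the clones, against 10.21 ± 0.02 in the control lines (SD, n = 3 and n = 2), a difference of -0.67 (adjusted p = 0.0655). Podnl1 was at -0.38, Prelp at 0.36 and Optc at -0.19, and none passed. At passage 43 the smallest limma adjusted p among the 8 was 0.0647, that of Podnl1 at 0.39. Of the 8, 3 were higher in all 5 lines, beside 9.57% of all tested probe sets, and the median change of the 8 was 0.21.

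Enzymes of chondroitin, dermatan and keratan sulfate chains build the glycosaminoglycans of these proteins. Of 23 tested, 0 passed limma in clones against control lines (median -0.05). At unadjusted p under 0.05, 4 of the 23 passed, beside 4251 of all 27520 tested probe sets. These were Chsy1 at -0.36, Csgalnact2 at -0.47, Dsel at 0.31 and Chst12 at -0.47. Csgalnact1, which starts the chondroitin chain and was chosen after its values were seen, was lower in the scrambled than in the untransfected line, at -3.15 (adjusted p = 0.00496), and higher in S1 by 2.28 (adjusted p = 0.0107) and in S5 by 2.07 (adjusted p = 0.0193). It was at 0.84 in S4 (adjusted p = 0.296) and at 1.73 in the clones together (adjusted p = 0.489). At passage 43, 1 of 23 passed upward, beside 2.43% of all tested probe sets: B4galt4, a galactosyltransferase, at 0.50 (adjusted p = 0.0117).

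Of 18 other proteoglycan core proteins tested, 1 rose in the clones, beside 0.898% of all tested probe sets that passed in either direction. It was Gpc6, a glypican, at 10.17 ± 0.05 in the clones, against 9.04 ± 0.05 in the control lines. That is a difference of 1.13 (SE 0.07, limma adjusted p = 0.0161). Srgn, serglycin, was at -3.33 (adjusted p = 0.0708), Vcan, versican, at -1.13 and Sdc4, syndecan 4, at 0.65. At unadjusted p under 0.05 in limma, 8 of the 18 passed, beside 4251 of all 27520 tested probe sets. At passage 43, 2 of the 18 rose, Sdc4 by 0.43 and Agrn, agrin, by 0.36, and 1 fell, Gpc4, at -0.55 (limma adjusted p = 0.0382, 0.0193 and 0.0194), Agrn and Gpc4 being named after their values were seen. Of all 27520 tested probe sets, 670 (2.43%) rose and 850 fell there. Of 7 proteases that process or cleave the family, 1 fell in the clones, beside 0.898% of all tested probe sets that passed in either direction. It was Mmp2, gelatinase A, at -4.05 (limma adjusted p = 0.0488), and Adamts1 was at 1.67 (adjusted p = 0.0643). Among the 7, 6 had an unadjusted limma p under 0.05, beside 4251 of all 27520 tested probe sets, a description of a list chosen with earlier results known. Mmp2 and Mmp14, its activator, were higher at passage 43 by 0.87 (adjusted p = 0.0111) and 0.50 (adjusted p = 0.0155), so 2 of 7 passed there, beside 2.43% of all tested probe sets. Of 19 partners and receptors of decorin and biglycan, 1 rose in the clones, beside 0.898% of all tested probe sets that passed in either direction. It was Met, the hepatocyte growth factor receptor that decorin binds, by 1.21 (SE 0.10, limma adjusted p = 0.0293). Col6a1 was at -2.10 (adjusted p = 0.0633), Col6a2 at -2.23 (adjusted p = 0.0701) and Tlr2 at -0.73 (adjusted p = 0.0855). Among the 19 partners, 4 had an unadjusted limma p under 0.05, beside 4251 of all 27520 tested probe sets. The median of these partners was 0.05 in the clones, and -0.48 in the scrambled against the untransfected line, where 5 fell and 1 rose, beside 6.1% of all tested probe sets that passed in either direction. Over all tested probe sets the median was -0.01 for the clones and 0.00 for the scrambled line. With clone S1 or S5 left out, 0 of all tested probe sets passed in clones against control lines, Gpc6, Mmp2 and Met among those lost, and with S4 left out 2 did. Chosen after their values were seen, the 6 partners that passed in the scrambled line were Egfr at -3.09, Tgfb3 at -2.52, Ccn4 at -1.40, Igf1r at -1.37, Ccn2 at -0.48 and Tlr4 at 1.39.

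The genes whose profile over the 10 arrays was most like each proteoglycan were ranked by Pearson correlation of log2 intensities, among 1296 genes with an SD of at least 0.5. The arrays share lines and passages, so these are descriptions. For Dcn they were Pln, phospholamban (r = 0.9585), Fam210b (0.929) and Rps6ka2 (0.9261). For Fmod they were Pxylp1 (0.9656), a phosphatase of the xylose link of glycosaminoglycan chains, Itgb5 (0.9485) and Podxl2 (0.9439). For Bgn they were Ctso (0.9544), Sort1 (0.9157) and Pln (0.9119), and for Lum they were Mapre3 (0.894), Sox4 (0.8816) and Ltbp4 (0.8784). For Ogn 1385248_a_at they were Dhrs3 (0.9285), Tbl1xr1 (0.9204) and Ccnt2 (0.9195). For the other Ogn probe sets the highest was another gene: Gsta4 (0.9448) for 1376749_at, Ccnt2 (0.9052) for 1383263_at and Tbl1xr1 (0.8877) for 1390450_a_at. Dhrs3 was not among the 5 ranked genes of these probe sets. Aspn was left out because it was at the floor on more than 5 arrays. Among the members, Dcn and Bgn correlated at 0.843, Lum and Bgn at 0.8342, and Dcn and Lum at 0.6514.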

How the data were processed

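Biotin-labelled total RNA was hybridised to Affymetrix arrays, as the labels' protocols state. The deposited values are linear intensities, 1 column per array, made by the authors with RMA, per the submitters' processing notes; its version, and why the floor lies at 20, is not given in the sources used here. Any floor has no order below it, so small changes near it are compressed, and log2 of the intensities was taken before testing.

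The table holds 31099 probe sets. Dropping 57 array controls and 3522 probe sets that never left the floor kept 27520 for testing, of which 19202 carry a single symbol in the platform annotation. Matched to the gene table of GRCr8, 20764 probe sets with 1 symbol were found and 0 symbols changed. No probe set with several symbols held a member.

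Models were fitted with limma 3.58.1 (R 4.3.3, eBayes). A call is a Benjamini-Hochberg adjusted p under 0.05 over all tested probe sets. Clones were compared with control lines on 5 line means, since passages of a line share its cells. Single clones, the control lines and differences between clones used all 10 arrays and 1 coefficient per line, while the passage effect was fitted with line as a block. All 10 pairs of lines had passage deviations that correlated above 0.1 (0.1364 to 0.6485), so samples of equal passage can be taken as paired. The main tests of single clones, the control lines and differences between clones left this pairing out. Values with passage as a replicate block are an alternative, given where the call changes. Tests were checked on simulated data. The simulation held no added spread between lines, no floor and no shared passage effect, and changed only brighter probe sets. It therefore says nothing about error rates for members near the floor or with control lines far apart.

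Lists held 1 probe set per gene, that with the highest mean. Up to 4 genes a list were named: those past the threshold in clones against control lines by size, then those with the smallest p. Neighbours were up to 3 places away, and likeness named the 3 highest of 5 ranked genes, or the highest alone for the other Ogn probe sets. The members, lists and tests were chosen with earlier results of these data known. Alternatives changed the control line, the unit of replication, the floor (40), the filter, the normalization (quantile), the variance trend and the arrays used. The comparison of passage changes between clones and control lines was added after the values were seen.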

Additional observations from a re-analysis of the deposited data

Results flagged for a closer look

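In 6 of 30 groups of 5 lines examined, 1 line stood far from the others by Dixon's criterion. The groups share arrays and hold several probe sets of the same gene, so they are not independent. In the Aspn groups the clones are tied at the floor, so only a control line could stand out there. The count is therefore a description and is not set against a chance rate. The values are log2 intensities. The untransfected line was highest at passage 42 for both Aspn probe sets, at 8.92 (1380726_at) and 8.73 (1381504_at), against at most 4.80 and 4.83 in the other lines. For Aspn 1380726_at the scrambled line also had the largest log2 change between passages, 3.31, against 0 to 0.73 in the others. The scrambled line was lowest for Bgn at passage 43, at 13.04, against 13.42 to 13.56. The untransfected line was lowest for Fmod at passage 42, at 5.46, against 6.70 to 7.09, and highest for Ogn 1390450_a_at at passage 43, at 10.75, against 10.30 to 10.42. All 6 flags fell on a control line. Their cause was not tested.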

How the results depend on the processing

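Counts here are member probe sets past the threshold, of 10. In clones against control lines the count was 0 as reported, 3 against the scrambled line alone, 3 against the untransfected line alone (Fmod and both Aspn probe sets each time), 2 when line was a random block and 2 when passage was a replicate block too. Leaving out lines or passages gave 0 to 3. Quantile normalization, a floor of 40, the filters and a variance trend left it at 0. In each clone the count was 2 as reported, 0 with a floor of 40, 0 with no filter, 0 with probe sets above the floor on at least 5 arrays (which removes Aspn from the test) and 0 with the scrambled line alone, 3 (S1), 2 (S4) and 3 (S5) with the replicate block, and 0 to 2 with single arrays left out. For scrambled against untransfected the count was 0, 7 with the replicate block, and 0 to 2 with single arrays left out. Differences between clones stayed at 0 under each alternative run. For passage 43 against 42 it was 6 as reported, 2 with a floor of 40, 2 with no filter (Bgn and 1 Ogn probe set both times), 1 with no replicate block (Ogn) and 0 to 7 with single lines left out. In the whole table the counts of calls for clones against control lines were 247 as reported, 14 with no filter, 45 with a floor of 40, 0 without S1, 2 without S4, 0 without S5, 80 without passage 42, 3 without passage 43, 1693 with the scrambled line alone, 2968 with the untransfected line alone, 1315 with line as a random block and 1205 with the replicate block too. Fits with 1 control line take their spread from the clones alone, and Aspn has none there, so their Aspn p-values measure no variation between lines. The random block had a correlation within lines of 0.0485, so it treats passages of a line as nearly independent.

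Some signs turned. In clones against control lines, Lum was 0.90 with the scrambled line alone and -1.15 to 0.90 with lines or passages left out, Ogn 1383263_at was 0.074 and -0.11 to 0.074, Ogn 1385248_a_at was 0.22 and -0.44 to 0.22, Ogn 1390450_a_at was 0.046 and -0.56 to 0.046, and Bgn was -0.090 with the untransfected line alone and -0.090 to 0.37. With the untransfected line alone, Lum was -0.59 in S1 and -0.65 in S5. With single arrays left out, Lum ranged from -0.29 to 1.15 in S1, -2.46 to 0.082 in S4 (-1.19 as reported) and -0.35 to 1.10 in S5, and Ogn 1383263_at in scrambled against untransfected from -0.44 to 0.075. Where no value above shows it, the cause was not tested. A member near the floor has little signal over background, so differences that involve Aspn in the clones or in the scrambled line at passage 42, Dcn in either control line at passage 42, or Fmod in the untransfected line may be compressed.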
